A study of Mus musculus with 2 samples.

Results

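The Fc gamma receptors, their shared signalling chain Fcer1g, the related gene Fcrls and the neonatal Fc receptor gene Fcgrt were described in single-cell RNA libraries of mouse spinal cord. All 7 genes (Fcgr1, Fcgr2b, Fcgr3, Fcgr4, Fcer1g, Fcrls and Fcgrt) were taken by symbol from the 27998 gene rows of both matrices, and all 7 were present. The library labelled Runx1 knock-out came from mice given tamoxifen, and the library labelled wild type came from mice given vehicle, both of the Cx3cr1-CreERT2-YFP::flxRunx1 strain on the C57BL/6J background. In this strain a tamoxifen-inducible Cre and yellow fluorescent protein (YFP) are driven from Cx3cr1, which encodes the fractalkine receptor of microglia and related myeloid cells, so YFP marks cells with Cx3cr1 activity and Cre acts there. Tamoxifen was given at 1 mg per day on 5 days, and YFP-positive cells were sorted from the spinal cord 4 weeks after the first injection. Both libraries came from a collagenase digest at 2 mg per ml for 30 min at 37 °C. The effect of this digest on RNA levels was not tested. The age of the mice and the number pooled per library are not given in the sources used here. With 1 library per group no test between groups was possible, the effects of tamoxifen and of the genotype cannot be told apart, and the 95% intervals given below cover counting error alone.

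Fc gamma receptors bind the constant part of immunoglobulin G and let macrophages take up, and respond to, antibody-coated material. Activating receptors signal through the ITAM motif of the Fcer1g chain, which recruits the kinase Syk, whereas the inhibitory receptor Fcgr2b carries an ITIM motif that recruits phosphatases such as the one encoded by Inpp5d. The balance between both kinds sets how easily a macrophage responds to immune complexes. In the mouse, Fcgr1 is the high-affinity receptor, Fcgr3 and Fcgr4 are lower-affinity activating receptors, Fcrls is a receptor-like gene known as a microglial signature gene, and Fcgrt encodes the receptor that recycles immunoglobulin G, a task of endothelial cells and of macrophages.

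The library labelled knock-out held 2596 filtered cells and the wild-type library 4582, with 13075939 and 37446978 unique molecular identifiers (UMIs, each a captured RNA molecule) before filtering. The median was 3715.5 UMIs per barcode in the library labelled knock-out and 6376 in the wild-type library, and 9 barcode sequences occurred in both. Clusters were named from marker genes. Microglia-like cells numbered 1354 in the library labelled knock-out (52.2%) and 2185 in the wild-type library (47.7%), and all 12 microglial markers had at least 20 CPM (UMIs per 1000000 UMIs of the same cells) in both. Endothelial-like cells made up 32.3% of the library labelled knock-out and 35.8% of the wild-type library, although the sort was for Cx3cr1-driven YFP. Microglia-like cells from the library labelled knock-out lay almost wholly in a cluster of their own (1349 of 1354), and those of the wild-type library in another, so library and cluster cannot be told apart. The targeted gene, Runx1, was higher rather than lower under the knock-out label: microglia-like cells had 181 CPM in the library labelled knock-out and 92.5 CPM in the wild-type library, a log2 ratio of 0.97 (0.85 to 1.08). The counted 3′ tags need not fall in the deleted part of the gene, so this level does not check the deletion. RNA of other cell types was also present in each class. Endothelial markers summed to 2250 CPM in microglia-like cells from the library labelled knock-out and to 6640 CPM in those of the wild-type library, and microglial markers summed to 3581 CPM in endothelial-like cells from the library labelled knock-out and to 8649 CPM in the wild-type library.

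Of the members, 4 lie within 275749 bases of chromosome 1 (GRCm38, GENCODE M21 annotation). Fcgr2b spans chr1:170958617-170976547 on the minus strand, Fcgr4 chr1:171018920-171029761 on the plus strand, Fcgr3 chr1:171051174-171064935 on the minus strand and Fcer1g chr1:171229572-171234365 on the minus strand. Fcgr1 (chr3:96282909-96293969) and Fcrls (chr3:87250758-87263738) lie on chromosome 3, and Fcgrt (chr7:45092990-45103851) on chromosome 7, all on the minus strand. Because Runx1 is the gene under study, the promoters were searched on both strands for the letters TGTGGT and TGCGGT that Runx factors bind. The window of each member ran from 250 bases before to 50 after a RefSeq start (GRCm38.p6). The 250 upstream bases are shown for Fcgr3, the activating receptor with the most UMIs, for Fcgr2b, the inhibitory receptor, and for Fcrls, which holds a pair of matches. Capitals mark the Runx letters, as written or as their reverse complement (ACCACA).
Fcgr3: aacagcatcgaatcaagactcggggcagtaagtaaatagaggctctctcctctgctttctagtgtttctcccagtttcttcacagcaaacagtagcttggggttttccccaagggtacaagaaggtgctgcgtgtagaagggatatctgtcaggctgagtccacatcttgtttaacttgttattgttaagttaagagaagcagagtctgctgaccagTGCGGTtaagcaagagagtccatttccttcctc
Fcgr2b: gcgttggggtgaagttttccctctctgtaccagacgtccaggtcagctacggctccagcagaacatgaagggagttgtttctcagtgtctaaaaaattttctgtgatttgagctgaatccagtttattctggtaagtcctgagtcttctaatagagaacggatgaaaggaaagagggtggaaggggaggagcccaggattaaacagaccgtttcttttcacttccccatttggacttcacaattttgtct
Fcrls: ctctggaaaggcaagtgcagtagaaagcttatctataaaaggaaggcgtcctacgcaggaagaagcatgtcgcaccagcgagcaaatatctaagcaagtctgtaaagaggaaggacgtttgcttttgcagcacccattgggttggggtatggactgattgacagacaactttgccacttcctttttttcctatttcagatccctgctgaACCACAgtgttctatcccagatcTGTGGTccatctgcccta
These windows are chr1:171059404-171059653 for Fcgr3, one of 2 RefSeq starts of the gene, chr1:170976072-170976321 for Fcgr2b and chr3:87263525-87263774 for Fcrls, each read on the minus strand from 5′ to 3′. The Fcgr3 match begins 33 bases before the start, and the Fcrls matches begin 41 and 18 bases before it. The Fcgr3 window lies inside the annotated gene, and the window of the other Fcgr3 start did not enter the count of members. TGTGGT occurred in the windows of Fcgr4, Fcer1g and Fcrls and TGCGGT in that of Fcgr3, so 4 of 7 members held one or the other, against 22.4% of all 32851 RefSeq windows of this length. Neither occurred in the windows of Fcgr1, Fcgr2b and Fcgrt. The letters GAGGAAGT, bound by the myeloid factor PU.1, occurred in the window of Fcgr4 and in 3.20% of all windows. The C/EBP letters TTGCGCAA occurred in no member and in 0.183% of all windows. A match is a description of letters and not of binding.

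Among the activating receptors, Fcgr3 had similar levels in microglia-like cells of both libraries. It had 6961 UMIs, or 1132 CPM, in the library labelled knock-out and 16755 UMIs, or 1061 CPM, in the wild-type library, a log2 ratio of 0.09 (0.05 to 0.13). Fcgr1 had 276 CPM in microglia-like cells from the library labelled knock-out and 248.6 CPM in those of the wild-type library, a log2 ratio of 0.15 (0.07 to 0.24). Both activating receptors were thus marginally higher in the library labelled knock-out, by less than the 1.5-fold difference used here as a rule of size. That direction turned when background RNA was subtracted, to log2 ratios of -0.11 for Fcgr1 and -0.17 for Fcgr3, and when all cells were pooled. Fcgr4 was scarce. It had 11 UMIs (1.79 CPM) in microglia-like cells from the library labelled knock-out and 157 UMIs (9.94 CPM) in those of the wild-type library, a log2 ratio of -2.47 (-3.51 to -1.60) below the 20 CPM that a gene needed to be counted as measured. The 11 UMIs lay in 11 cells of the library labelled knock-out with 1 each, and the 157 UMIs in 147 cells of the wild-type library with at most 4 in a cell. Fcgr4 is also a receptor of neutrophils, and the 6 neutrophil markers summed to 8.29 CPM in microglia-like cells from the library labelled knock-out and to 159 CPM in those of the wild-type library. The part of this RNA in the Fcgr4 difference was not tested.

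The inhibitory receptor Fcgr2b was lower in microglia-like cells from the library labelled knock-out. It had 320 UMIs, or 52.0 CPM, there and 1547 UMIs, or 98.0 CPM, in the wild-type library, a log2 ratio of -0.91 (-1.09 to -0.74) that is a 1.88-fold lower level. The UMIs were spread over 275 cells of the library labelled knock-out and 986 cells of the wild-type library, with no more than 4 in any cell of the library labelled knock-out and 8 in any of the wild-type library. With background RNA subtracted the levels were 57.1 CPM in the library labelled knock-out and 132 CPM in the wild-type library, and the log2 ratio was -1.21. Markers of B cells, which also use Fcgr2b, summed to 37.4 CPM in microglia-like cells from the library labelled knock-out. In those of the wild-type library they summed to 31.1 CPM. Of these 6 markers, 4 had a gene row, and in each library 1 reached 20 CPM and 2 had 0 UMIs. Border-associated macrophage markers summed to 114 CPM in the library labelled knock-out and 119 CPM in the wild-type library. Of these 9 markers, 1 reached 20 CPM in each library. The gene Gm38204, which overlaps Fcgr2b in position, had 0 UMIs in microglia-like cells of both libraries. Fcgr2b and Fcgr3 are related in sequence. Of the 31-base words in the last 500 bases of their annotated transcripts, 3.06% of those of Fcgr2b also occurred in Fcgr3, and 0.52% of those of Fcgr3 occurred in Fcgr2b, so few sequences at the 3′ ends are shared by both genes.

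The signalling chain Fcer1g, which carries the ITAM motif for the activating receptors, had 2476 CPM in microglia-like cells from the library labelled knock-out and 2594 CPM in those of the wild-type library, a log2 ratio of -0.07 (-0.09 to -0.04). There were 1.76 Fcer1g UMIs per UMI of Fcgr1, Fcgr3 and Fcgr4 together in the library labelled knock-out and 1.97 in the wild-type library. Fcrls had 1236 CPM in microglia-like cells from the library labelled knock-out and 1011 CPM in those of the wild-type library, a log2 ratio of 0.29 (0.25 to 0.33) that fell short of 1.5-fold. With background RNA subtracted the log2 ratio of Fcrls was 0.04. Fcgrt had 183 CPM in microglia-like cells from the library labelled knock-out and 287 CPM in those of the wild-type library, a log2 ratio of -0.65 (-0.75 to -0.56) and a 1.57-fold lower level. Fcgrt was highest in endothelial-like cells, whose markers had the larger sum in microglia-like cells from the wild-type library. With background RNA subtracted Fcgrt had 145 CPM in the library labelled knock-out and 181 CPM in the wild-type library, a log2 ratio of -0.32 that no longer reached 1.5-fold.

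Of the 6 members that reached 20 CPM in microglia-like cells, 0 were at least 1.5-fold higher in the library labelled knock-out, against 8.09% of all 5759 genes measured there. At least 1.5-fold lower were 2 members, Fcgr2b and Fcgrt, against 12.5% of all genes, and 0 members were 2-fold apart in either direction, against 7.22% of all genes. The median log2 ratio of these 6 members was 0.01 and that of all measured genes was -0.04. Of the measured members, 5 were microglia-enriched (in 1 library or both, 2 or more times higher there than in endothelial-like and pericyte-like cells), all but Fcgrt. Among the 841 microglia-enriched genes, 28.4% were at least 1.5-fold higher and 2.5% at least 1.5-fold lower in the library labelled knock-out. Fcgr2b was the enriched member past 1.5-fold, in the direction that 21 of the 841 genes took. The median log2 ratio of the 5 enriched members was 0.09 and that of all microglia-enriched genes was 0.32. Fcgr1, Fcgr3, Fcer1g and Fcrls thus each lay below the median of the microglia-enriched genes, with Fcrls the nearest to it. A gene could enter the enriched set through 1 library alone, and so through the library where it was the higher. Fcer1g met the rule in the library labelled knock-out alone, being 1.98-fold above pericyte or smooth muscle-like cells in the wild-type library. The other enriched members met it in both libraries. The part of this rule in the enriched shares and median was not tested.

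**Figure D1:**
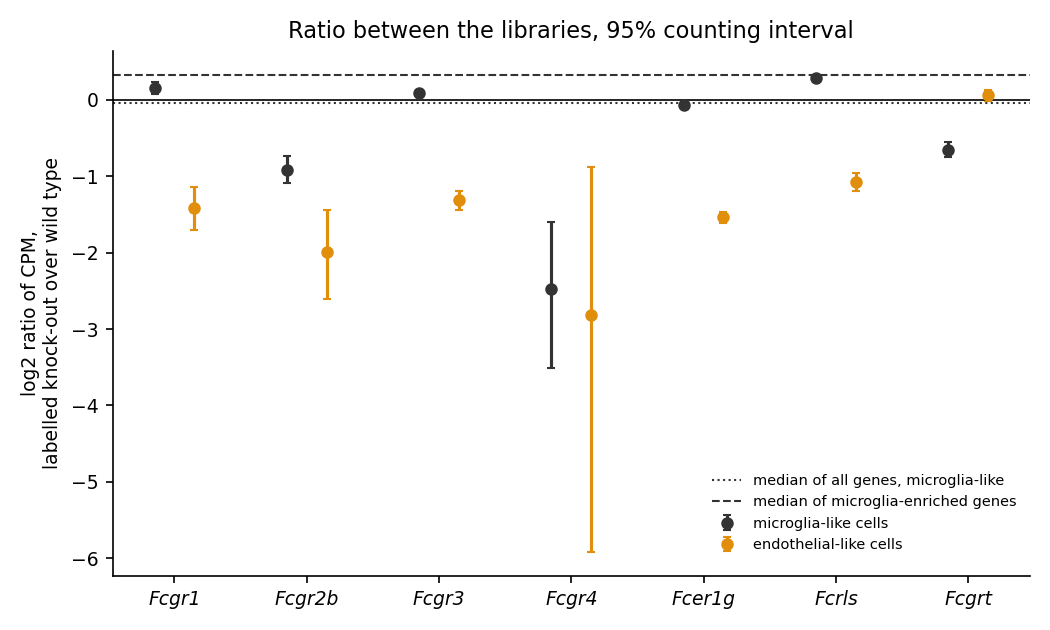
Log2 ratio of CPM, library labelled knock-out over wild-type library, for each member in microglia-like (black) and endothelial-like cells (orange). Points are ratios of summed UMIs, bars are 95% counting intervals, and dotted and dashed lines are the medians of all genes (-0.04) and of microglia-enriched genes (0.32) in microglia-like cells; Fcgr2b (-0.91) and Fcgrt (-0.65) lie apart from Fcgr1, Fcgr3, Fcer1g and Fcrls, which lie between -0.07 and 0.29.

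The activating to inhibitory balance differed more between the libraries than Fcgr1 or Fcgr3 did. UMIs of Fcgr1, Fcgr3 and Fcgr4 together numbered 8672 in microglia-like cells from the library labelled knock-out, against 320 of Fcgr2b, which gives 27.1 activating UMIs per inhibitory UMI (24.2 to 30.4). In microglia-like cells from the wild-type library the counts were 20837 and 1547, which gives 13.5 per inhibitory UMI (12.8 to 14.2). The log2 difference was 1.01 (0.83 to 1.19). It rests on the same Fcgr2b UMIs as the Fcgr2b log2 ratio of -0.91 given above and is not a separate result. A UMI is a tag of the 3′ end and need not scale with transcript length. With each gene divided by its longest annotated transcript, the ratios were 64.6 in the library labelled knock-out and 32.3 in the wild-type library. Since both counts come from the same cells, the total of the library cancels in this ratio. Fcgr2b made up 3.56% of the UMIs of the 4 receptors in the library labelled knock-out and 6.91% in the wild-type library, while Fcgr3 made up 77.4% and Fcgr1 18.9% in the library labelled knock-out and Fcgr3 74.9% and Fcgr1 17.5% in the wild-type library. Fcgr4 made up 0.122% in the library labelled knock-out and 0.701% in the wild-type library.

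Receptor UMIs outside the microglia-like class had a similar composition in most classes. Microglial markers were present there too, summing in endothelial-like cells to 3581 CPM in the library labelled knock-out and 8649 CPM in the wild-type library. The part of microglial RNA in these receptor UMIs was not tested. In endothelial-like cells, which carried receptor UMIs at a lower level, the ratio was 24.0 (16.5 to 36.4) in the library labelled knock-out and 15.3 (13.7 to 17.1) in the wild-type library. The receptor UMIs there were 78.3% Fcgr3 and 17.4% Fcgr1 in the library labelled knock-out and 75.2% Fcgr3 and 17.9% Fcgr1 in the wild-type library, close to the microglia-like shares of each library. An unnamed cluster with both microglial and endothelial markers and a high UMI count had ratios of 27.8 (19.2 to 41.8) in the library labelled knock-out and 13.4 (12.1 to 14.9) in the wild-type library. Over all filtered cells, with no class chosen, the ratio was 25.8 in the library labelled knock-out and 13.8 in the wild-type library, a log2 difference of 0.90. These cells include the microglia-like ones, which held 8672 of 10662 activating UMIs in the library labelled knock-out and 20837 of 33032 in the wild-type library. Erythrocyte-like cells, with 4 Fcgr2b UMIs in the library labelled knock-out and 10 in the wild-type library, had ratios of 23.5 (8.88 to 88.0) and 28.1 (15.1 to 59.2). A further departure was a small cluster of cycling markers, with 17 cells of the library labelled knock-out and 19 of the wild-type library, which held microglial markers and led with natural killer cell genes such as Gzma and Nkg7 beside Top2a and Mki67. Fcgr2b had 18 UMIs (167 CPM) in its cells of the library labelled knock-out and 19 UMIs (109 CPM) in those of the wild-type library. The ratio there was 5.39 (3.24 to 9.47) in the library labelled knock-out and 9.05 (5.62 to 15.4) in the wild-type library. The interval in the library labelled knock-out lies below that of its microglia-like cells, but rests on 9 cells with an Fcgr2b UMI.

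**Figure D2:**
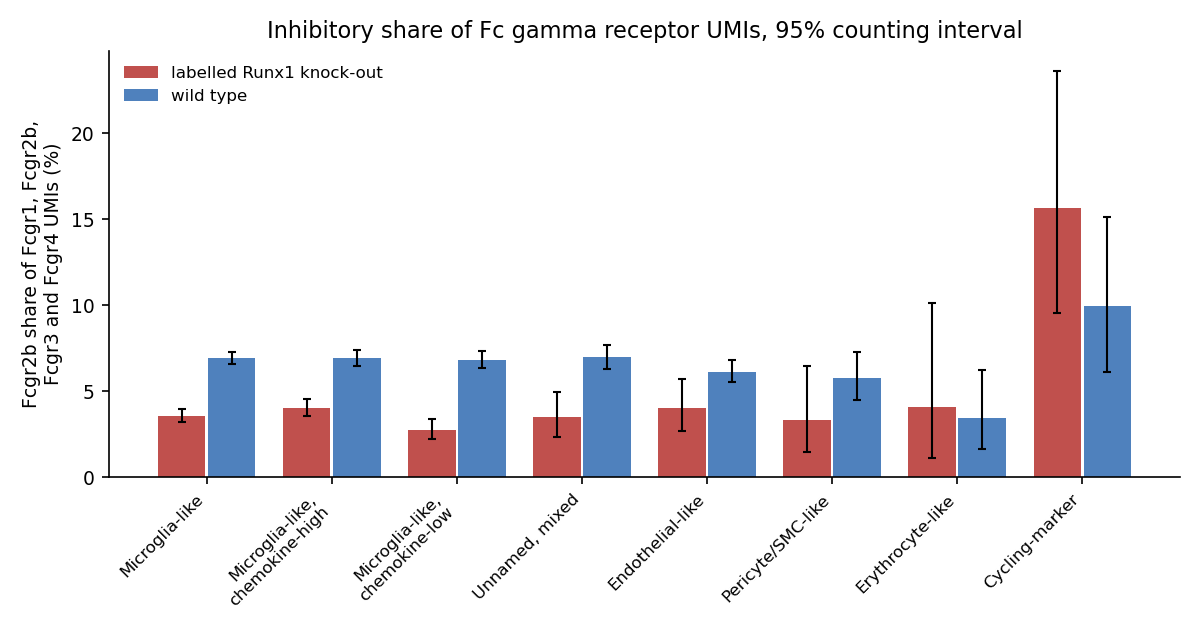
Share of Fcgr2b among the UMIs of Fcgr1, Fcgr2b, Fcgr3 and Fcgr4, in percent, by cell class for the library labelled knock-out (red, left) and the wild-type library (blue, right). Bars start at 0 and error bars are exact 95% counting intervals; the microglia-like share is 3.56% in the library labelled knock-out and 6.91% in the wild-type library, and the erythrocyte-like class, with 4 and 10 Fcgr2b UMIs, and the cycling-marker cluster depart from this order.

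Across cell classes, Fcgr1, Fcgr2b, Fcgr3, Fcer1g and Fcrls were highest in microglia-like cells and in small clusters that shared microglial markers. In the library labelled knock-out, Fcgr3 had 1132 CPM in microglia-like cells, 641 CPM in the unnamed mixed cluster, 630 CPM in the cycling-marker cluster, 212 CPM in pericyte or smooth muscle-like cells, 136 CPM in endothelial-like cells and 132 CPM in erythrocyte-like cells. In the wild-type library it had 1061, 702, 784, 406, 339 and 314 CPM in the same classes. The mixed and cycling-marker clusters of the library labelled knock-out, and the endothelial-like and erythrocyte-like cells of either library, did not differ in Fcgr3 beyond their counting intervals. The step from endothelial-like to microglia-like cells was larger in the library labelled knock-out for every member measured as microglia-enriched. In the library labelled knock-out it was 9.14-fold for Fcgr1, 8.32-fold for Fcgr3, 7.54-fold for Fcrls, 7.50-fold for Fcgr2b and 6.25-fold for Fcer1g. In the wild-type library it was 3.54-fold for Fcgr2b, 3.13-fold for Fcgr3, 3.07-fold for Fcgr1, 2.92-fold for Fcrls and 2.26-fold for Fcer1g. The larger step under the knock-out label was not particular to the members, since summed microglial markers had it too. Under that label these markers had 28020 CPM in the microglia-like class and 3581 CPM in the endothelial-like class. In the wild-type library they had 24091 CPM and 8649 CPM. The part of this marker difference in the steps of the members was not tested. Border-associated macrophage-like cells, a mixed cluster also led by MHC class II genes and the B cell marker Cd79a, numbered 4 in the library labelled knock-out. In the wild-type library they numbered 18, with border-associated macrophage markers at 476 CPM, against 119 CPM in microglia-like cells of that library. Microglial markers summed to 16810 CPM and endothelial markers to 9691 CPM in the same 18 cells, so the name is loose. In those 18 wild-type cells Fcgr3 had 747 CPM, Fcgr1 185 CPM, Fcgr2b 65.2 CPM, Fcrls 632 CPM and Fcer1g 2271 CPM, and Fcgr4 had 0 UMIs.

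Fcgrt had another order. It was highest in endothelial-like cells, at 556 CPM in the library labelled knock-out and 535 CPM in the wild-type library, a log2 ratio of 0.06 (-0.01 to 0.13). Pericyte or smooth muscle-like cells had 370 CPM of Fcgrt in the library labelled knock-out and 406 CPM in the wild-type library, with overlapping counting intervals. The microglia-like level was 3.04-fold lower than the endothelial-like level in the library labelled knock-out and 1.86-fold lower in the wild-type library. B2m, the light chain with which Fcgrt pairs, had 2782 CPM in microglia-like cells from the library labelled knock-out and 3060.2 CPM in those of the wild-type library, a log2 ratio of -0.14.

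In endothelial-like cells the other members differed between the libraries in the opposite direction to the microglial ones or more steeply. Fcgr1 had 30.2 CPM, Fcgr3 136 CPM, Fcrls 164 CPM, Fcer1g 396 CPM and Fcgr2b 6.94 CPM in the library labelled knock-out. In the wild-type library Fcgr1 had 80.9 CPM, Fcgr3 339 CPM, Fcrls 346 CPM, Fcer1g 1150.1 CPM and Fcgr2b 27.7 CPM. All 5 were at least 1.5-fold lower in the library labelled knock-out, against 6.02% of the 6296 genes measured in this class, and Fcgrt was not. Fcgr2b reached 20 CPM there in the wild-type library alone, where it was the higher, and the other 4 reached it in both libraries. Microglial markers as a whole moved with them, with the sums of 3581 CPM in the library labelled knock-out and 8649 CPM in the wild-type library given above, and their part in these differences was not tested.

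**Figure D3:**
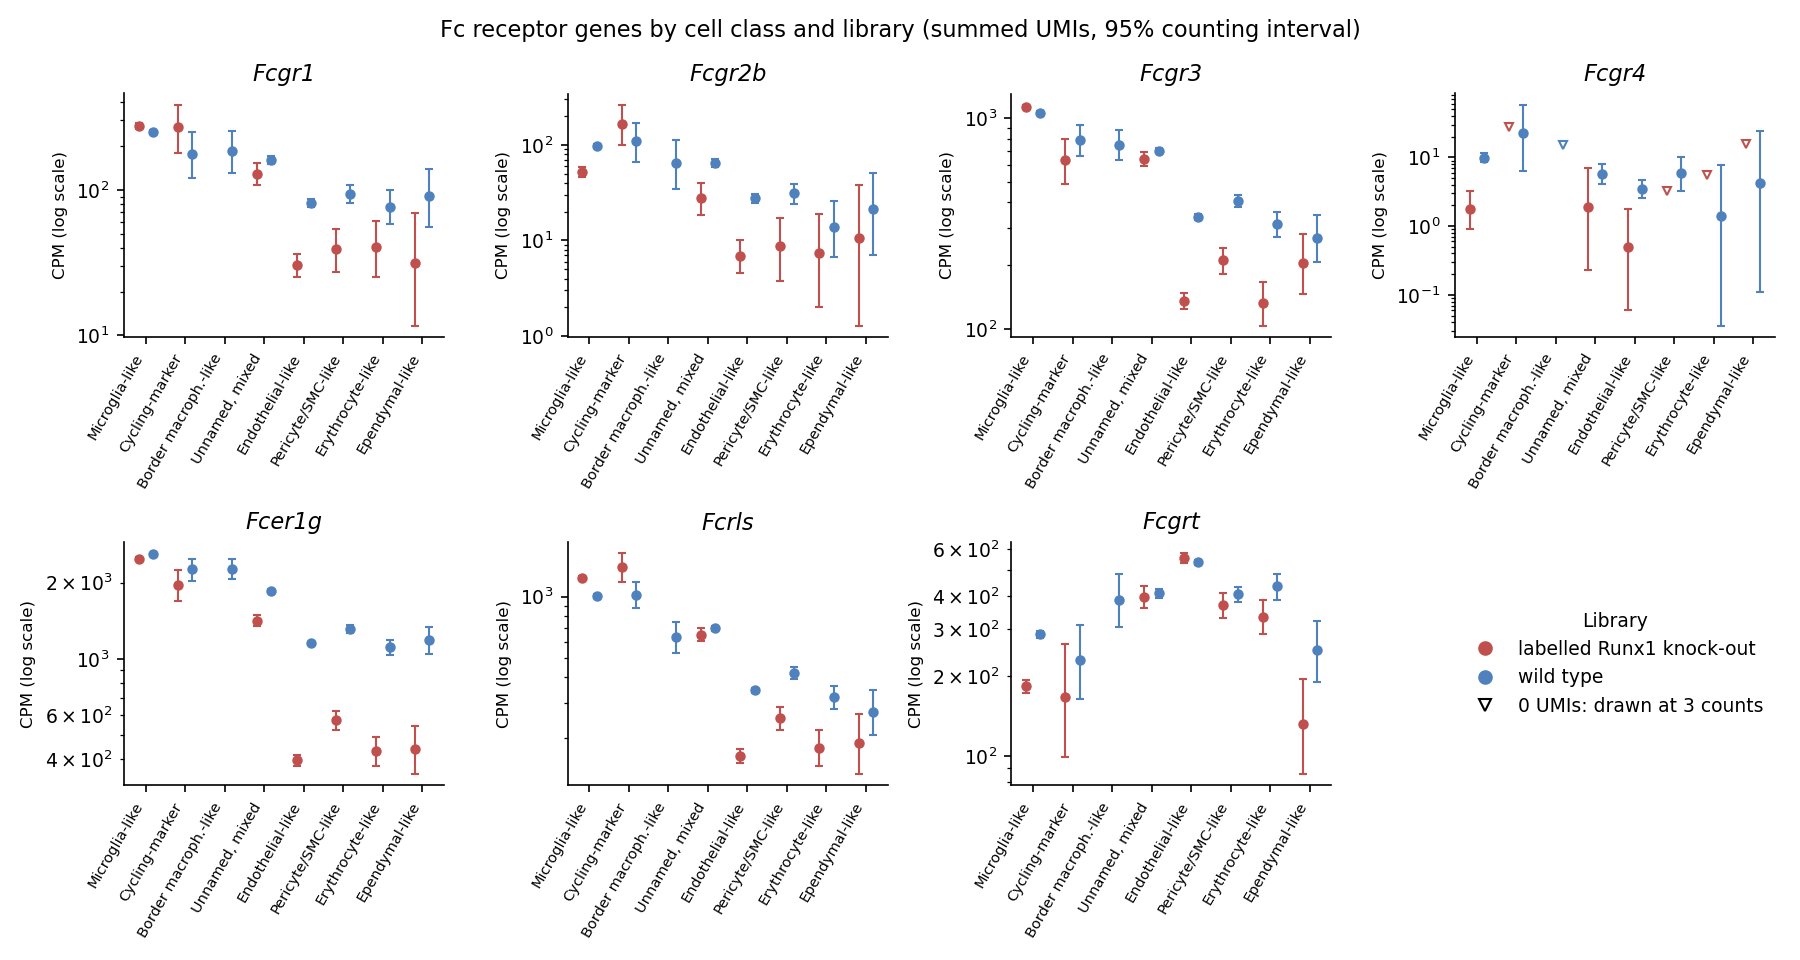
Level of each member in CPM (log scale, a separate axis per gene) in 8 cell classes, for the library labelled knock-out (red, left) and the wild-type library (blue, right). Points are summed UMIs with exact 95% Poisson intervals, open triangles mark classes with 0 UMIs at the level that 3 counts would give, and classes with fewer than 10 cells in a library are left out; Fcgr1, Fcgr2b, Fcgr3, Fcer1g and Fcrls are higher in microglia-like than in endothelial-like cells, while Fcgrt is highest in endothelial-like cells.

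Detection per cell was compared after every cell had been thinned to 1500 UMIs, which left out 0 cells. The median depth before thinning was 3471 UMIs in microglia-like cells from the library labelled knock-out and 5530.0 in those of the wild-type library, and 3597 UMIs in endothelial-like cells from the library labelled knock-out and 5940 in the wild-type library. An Fcgr3 UMI was found in 78.0% of microglia-like cells from the library labelled knock-out and 77.8% of those of the wild-type library, and in 18.6% of endothelial-like cells, a type that should lack the gene, from the library labelled knock-out and 39.1% in the wild-type library. Fcgr1 was found in 34.8% of microglia-like cells from the library labelled knock-out and 33.0% of those of the wild-type library, and in 3.81% of endothelial-like cells from the library labelled knock-out and 11.5% in the wild-type library. For both activating receptors the counting intervals of the microglia-like shares overlapped between the libraries.

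Fcgr2b was found in 7.46% of thinned microglia-like cells from the library labelled knock-out (6.12 to 8.99) and in 14.2% of those of the wild-type library (12.8 to 15.8), and in 0.954% of endothelial-like cells from the library labelled knock-out and 3.54% in the wild-type library. Unthinned, the Fcgr2b shares were 20.3% in microglia-like cells from the library labelled knock-out and 45.1% in those of the wild-type library. The shares with an inhibitory UMI in either library were above those in endothelial-like cells, and their intervals did not overlap between the libraries. Fcgr4 was found in 0.295% of thinned microglia-like cells from the library labelled knock-out and 1.74% of those of the wild-type library. In endothelial-like cells it was found in 0 of 839 thinned cells of the library labelled knock-out, with an exact upper limit of 0.439%, and in 0.427% of those in the wild-type library. Unthinned, 2 of these 839 cells of the library labelled knock-out held an Fcgr4 UMI, and 42 of the 1638 cells of the wild-type library.

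Fcer1g was found in 96.2% of thinned microglia-like cells from the library labelled knock-out and 97.0% of those of the wild-type library, and in 45.9% of endothelial-like cells from the library labelled knock-out and 82.6% in the wild-type library. Fcrls was found in 76.8% of microglia-like cells from the library labelled knock-out and 77.0% of those of the wild-type library, although its mean was 1.85 UMIs per thinned cell in the library labelled knock-out and 1.56 in the wild-type library. Its count per cell had the largest variance relative to its mean of the 7. The variance was 1.55 times the mean in the library labelled knock-out and 1.22 times in the wild-type library, where 1 is counting error alone. This measure rises with the mean for a given relative spread between cells, so it does not rank members of unlike level by unevenness. Fcgr1, Fcgr2b and Fcgrt had variances of 0.999 to 1.04 times the mean in both libraries. Fcgrt was found in 20.8% of microglia-like cells from the library labelled knock-out and 34.2% of those of the wild-type library, and in 56.4% of endothelial-like cells from the library labelled knock-out and 55.1% in the wild-type library.

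**Figure D4:**
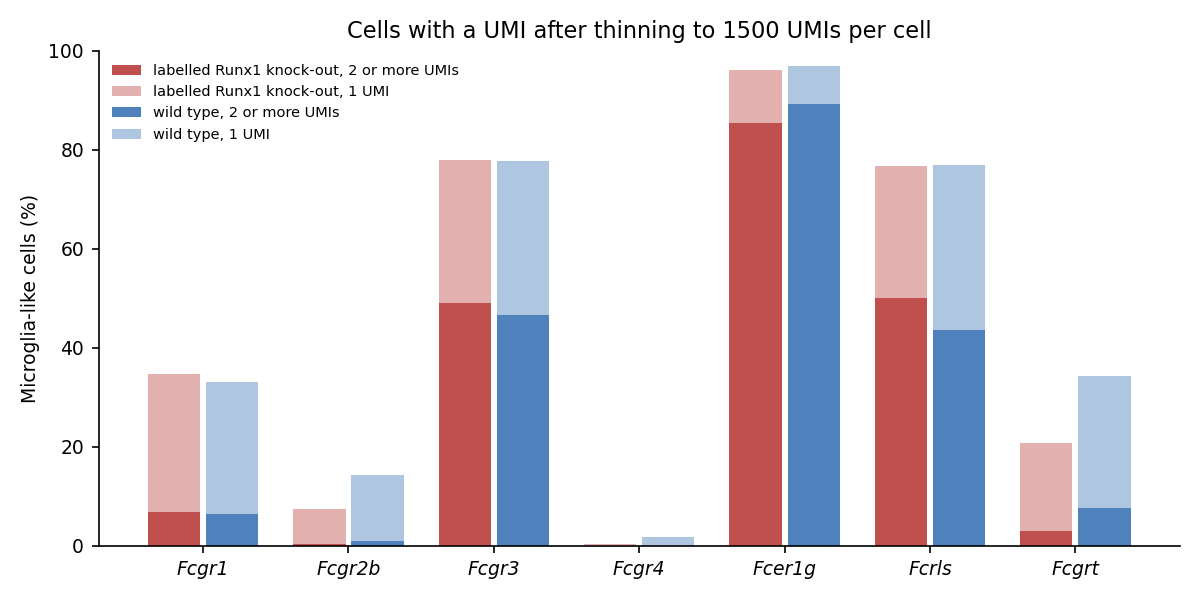
Share of microglia-like cells, in percent, with 1 UMI (pale) and with 2 or more UMIs (dark) of each member after thinning to 1500 UMIs per cell, library labelled knock-out (red, left) and wild-type library (blue, right). Fcgr2b reaches 7.46% of cells in the library labelled knock-out and 14.2% in the wild-type library, and Fcgr3 78.0% and 77.8%.

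Activating and inhibitory UMIs were not found in separate cells. Among thinned microglia-like cells from the library labelled knock-out, 5.98% held both kinds, 78.8% an activating UMI alone, 1.48% an inhibitory UMI alone and 13.7% neither. In the wild-type library 12.2% held both, 72.5% an activating UMI alone, 2.01% an inhibitory UMI alone and 13.3% neither. An Fcgr2b UMI was found in 7.06% (5.64 to 8.69) of the cells with an activating UMI and in 9.71% (6.03 to 14.6) of the cells without one in the library labelled knock-out. In the wild-type library these shares were 14.4% (12.9 to 16.1) and 13.2% (9.74 to 17.3). Within each library the intervals overlapped.

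Each library, clustered on its own, split the microglia-like cells into a chemokine-high and a chemokine-low cluster, led by genes such as Tnf, Il1b and Cxcl2 and by Gpr34, P2ry12 and Rgs1. The chemokine-high cluster held 828 cells in the library labelled knock-out and 1030 in the wild-type library, and the chemokine-low cluster 532 and 1147. The names rest on Cxcl2 among the 10 leading genes and are relative. Ccl3 had 3362 CPM in chemokine-high and 2010 CPM in chemokine-low cells of the library labelled knock-out. In the wild-type library it had 4469 CPM and 2776 CPM. The chemokine Ccl5 was a leading gene of the chemokine-low cluster of the library labelled knock-out. The members were not among the genes clustered on. Fcrls was lower in the chemokine-high cells of both libraries. It had 1062 CPM in chemokine-high and 1665 CPM in chemokine-low cells of the library labelled knock-out, and 859 CPM in chemokine-high and 1229 CPM in chemokine-low cells of the wild-type library, log2 ratios of -0.65 (-0.72 to -0.58) in the library labelled knock-out and -0.52 (-0.56 to -0.47) in the wild-type library. In the library labelled knock-out Fcrls passed 1.5-fold, as did 3.56% of 5557 genes in the lower direction, and in the wild-type library, where it did not, 0.784% of 5615 genes did. Fcgr1 took the same direction, with log2 ratios of -0.53 in the library labelled knock-out and -0.39 in the wild-type library, and Fcgr3 had -0.33 in the library labelled knock-out and -0.26 in the wild-type library. Fcer1g differed less, at -0.16 in the library labelled knock-out and -0.05 in the wild-type library. Microglial markers, which unlike the members were not kept out of the clustering, took the same direction, with sums of 25767 CPM in chemokine-high and 33435 CPM in chemokine-low cells of the library labelled knock-out, and of 22028 CPM in chemokine-high and 27059 CPM in chemokine-low cells of the wild-type library. Among them Tmem119 had log2 ratios of -0.40 in the library labelled knock-out and -0.32 in the wild-type library, and the part of this shift in the ratios of the members was not tested.

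Fcgr2b had 54.4 CPM in chemokine-high and 47.8 CPM in chemokine-low cells of the library labelled knock-out, a log2 ratio of 0.19 (-0.17 to 0.56), and 90.1 CPM in chemokine-high and 107.9 CPM in chemokine-low cells of the wild-type library, a log2 ratio of -0.26 (-0.41 to -0.11). In either state, Fcgr2b was the lower one in the library labelled knock-out. The activating to inhibitory ratio was 23.9 (20.97 to 27.3) in chemokine-high and 35.1 (28.3 to 44.1) in chemokine-low cells of the library labelled knock-out, and 13.4 (12.5 to 14.4) in chemokine-high and 13.7 (12.7 to 14.8) in chemokine-low cells of the wild-type library. The states differed in depth, with medians of 4145 and 2859 UMIs in chemokine-high and chemokine-low cells of the library labelled knock-out and 7144.5 and 4440.0 in those of the wild-type library. Endothelial markers were level between the states, at 2231 CPM in chemokine-high and 2197 CPM in chemokine-low cells of the library labelled knock-out, and at 6660.4 CPM and 6605 CPM in those of the wild-type library.

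**Figure D5:**
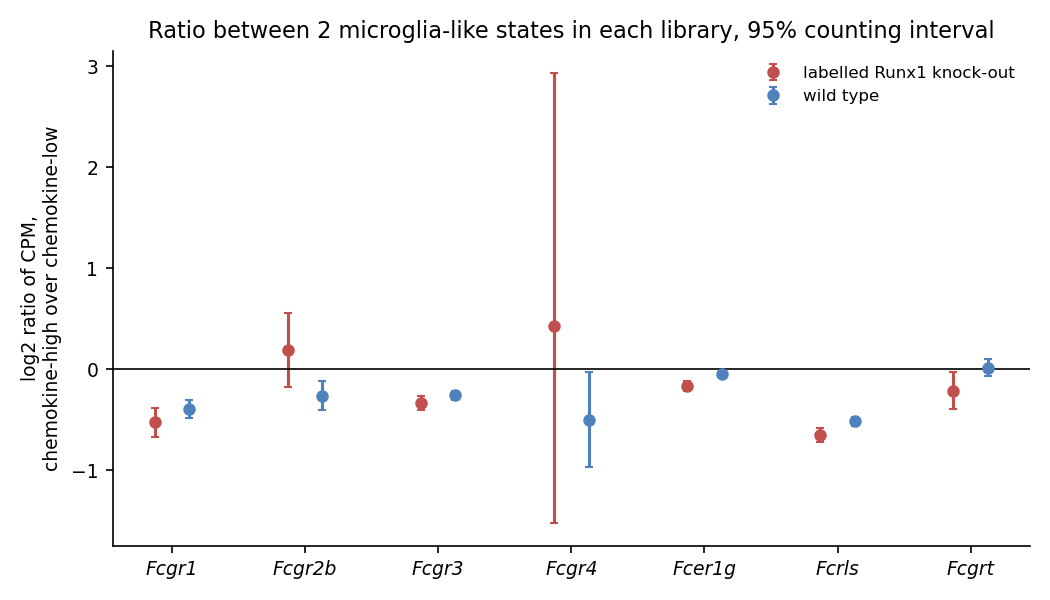
Log2 ratio of CPM, chemokine-high over chemokine-low microglia-like cells, for each member in the library labelled knock-out (red, left) and the wild-type library (blue, right), with 95% counting intervals. Fcrls, Fcgr1 and Fcgr3 lie below 0 in both libraries, and Fcgr2b spans 0 in the library labelled knock-out; the Fcgr4 ratio rests on 13 UMIs in the library labelled knock-out.

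The pathway downstream of the receptors was read from lists of named genes. Of 25 genes of activating ITAM signalling, 20 were measured in microglia-like cells, and 18 of these had log2 ratios above 0 and 2 below, with a median of 0.38, against -0.04 for all genes and 0.32 for microglia-enriched genes. Log2 ratios above 0 were held by 46.4% of all measured genes and by 77.6% of the microglia-enriched ones, and 17 of the 20 were microglia-enriched. At least 1.5-fold higher in the library labelled knock-out were 3 of the 20, against 8.09% of all genes and 28.4% of the microglia-enriched genes. These were Pik3r5, a regulatory subunit of phosphoinositide 3-kinase, with 33.3 CPM in the library labelled knock-out and 15.1 CPM in the wild-type library, Plcg2, a phospholipase C, with 44.9 CPM in the library labelled knock-out and 25.5 CPM in the wild-type library, and the adaptor Gab2, with 23.9 CPM in the library labelled knock-out and 15.5 CPM in the wild-type library. Pik3r5 and Gab2 reached 20 CPM, and so counted as measured, through the library labelled knock-out alone, where they were the higher. Nckap1l, of the WAVE actin complex, had 112 CPM in the library labelled knock-out and 75.2 CPM in the wild-type library, a log2 ratio of 0.57. Syk had 37.9 CPM in the library labelled knock-out and 30.0 CPM in the wild-type library, a log2 ratio of 0.34 (0.11 to 0.57).

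Of 11 genes of inhibitory ITIM signalling, 8 were measured, 6 with log2 ratios above 0 and 2 below, with a median of 0.12. Of the 8, 0 passed 1.5-fold in either direction, against 8.09% of all genes in the higher and 12.5% in the lower direction, so that 0 of 8 is no result about this list. The adaptor Dok3 had a log2 ratio of 0.52, the ubiquitin ligase Cbl 0.48, the phosphatase Ptpn11 -0.22 and Inpp5d, the inositol phosphatase that Fcgr2b recruits, 0.17 (0.07 to 0.27). Of 16 further chains and Fc receptors, 4 were measured, 2 with log2 ratios above 0 and 2 below. At least 1.5-fold higher was 1 of the 4, against 8.09% of all genes. This was Fcrl1, an Fc receptor-like gene known from B cells, with 220 UMIs (35.8 CPM) in the library labelled knock-out and 200 UMIs (12.7 CPM) in the wild-type library, a log2 ratio of 1.498 (1.22 to 1.78). It too counted as measured through the library labelled knock-out alone, where it was the higher. Tyrobp, the other ITAM chain of microglia, had a log2 ratio of -0.21 and Hcst 0.07. The immunoglobulin E receptor genes Fcer1a and Ms4a2 had 0 UMIs in microglia-like cells of both libraries. The immunoglobulin genes that encode the ligands were not analysed here.

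Genes of the chromosome 1 locus differed in the size of their ratios. Of 7 protein-coding genes annotated between Fcgr2b and Fcer1g, 2 reached 20 CPM in microglia-like cells. Sdhc, a subunit of respiratory complex II, had 52.4 CPM in the library labelled knock-out and 60.7 CPM in the wild-type library, a log2 ratio of -0.21. Pcp4l1 had 109 CPM in the library labelled knock-out and 312 CPM in the wild-type library, a log2 ratio of -1.52 (-1.64 to -1.40). The members there ranged from -2.47 (Fcgr4) and -0.91 (Fcgr2b) to -0.07 (Fcer1g) and 0.09 (Fcgr3).

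Over 16 pools of a cell class in a library, levels of Fcer1g followed those of C1qa (Pearson r = 0.997), C1qb, Tyrobp, Ctss and Ctsd most closely among 10263 genes. Among the 5 genes most like Fcrls were Lag3 (r = 0.985) and Csf1r (r = 0.982). Fcgr1 was most like Ctsd (r = 0.985), Tmem119 and Itgb5, and Fcgr3 most like C1qc (r = 0.977), Rhoh and Aif1. Fcgr2b was most like Rac2 (r = 0.964), Arhgap9 and Gusb, and its correlation with Fcgr3 over these pools was 0.845, while Fcgr1 and Fcgr3 had 0.9496. Fcgrt was most like Isyna1 (r = 0.978), Tmem204 and Slc31a1, and had a correlation of -0.26 with Fcgr1. These values are descriptions, since pools of a library share depth and background RNA.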

How the data were processed

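Single-cell 3′ libraries (10x v2 chemistry, per the labels) were analysed from the deposited raw UMI counts per gene and barcode, 1 library per group; the deposited barcode and gene lists hold other, non-numeric content. The submitters' processing notes name Cell Ranger 2.0.1, STAR and Seurat 2.1.0, with mm10 and GRCm38.p5 as builds; the selection of barcodes by the authors was not stated. The 7 members and the gene lists were chosen with earlier results of these data known.

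Barcodes under 300 genes or over 10% mitochondrial UMIs were dropped (8 in the library labelled knock-out, 0 in the wild-type library). Clustering used the cells from either library jointly (scanpy 1.11.5, 2000 variable genes, 30 principal components, 15 neighbours; leidenalg 0.10.2, resolution 0.5) without the members, Runx1 and sex-linked genes. No doublet caller was applied to the main values; Scrublet was an alternative. Names came from marker lists; the scoring, set after clusters were seen, counted markers with at least 20 CPM in 10% of a cluster's cells. UMIs were summed per class and library, and CPM are these sums per 1000000 UMIs of the same cells. Ratios are the library labelled knock-out over the wild-type library with exact conditional binomial intervals, levels have exact Poisson and shares exact Clopper-Pearson intervals (95%). Genes counted as measured at 20 CPM in either library. Background RNA was taken out by subtracting the whole library's composition at a size set by endothelial markers, 20.0% of microglia-like UMIs in the library labelled knock-out and 49.7% in the wild-type library. Named genes were the members, the 5 genes most like each in log2(CPM + 20), of which 1 is not reported here, up to 4 list genes with the largest ratios, and Runx1; Syk, Inpp5d, Hcst, Fcer1a and Ms4a2 were named after their values were seen. Gene positions are from GENCODE M21, in which 27722 of 27998 identifiers were found. The calculation was tested on simulated data.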

Additional observations from a re-analysis of the deposited data

Results flagged for a closer look

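The ratio between the libraries had opposite signs in microglia-like and endothelial-like cells for 4 members, and the difference between the classes was not tested. On the log2 scale, library labelled knock-out over wild-type library, Fcgr1 had 0.15 in microglia-like and -1.42 in endothelial-like cells, Fcgr3 had 0.09 and -1.32, and Fcrls had 0.29 and -1.08. Fcgrt had -0.65 in microglia-like and 0.06 in endothelial-like cells. For each of these genes the lower ratio was in the class where its level was lower. With background RNA subtracted, the microglia-like ratios were -0.11 for Fcgr1, -0.17 for Fcgr3, 0.04 for Fcrls and -0.32 for Fcgrt. The signs of Fcgr1 and Fcgr3 then no longer differed from the endothelial-like ratios, which had no background subtracted. Microglial markers summed in endothelial-like cells to 3581 CPM in the library labelled knock-out and 8649 CPM in the wild-type library, and their part was not tested.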

How the results depend on the processing

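The log2 difference of the activating to inhibitory ratio, 1.01, lay between 0.90 and 1.04 under 14 alternatives, within its counting interval in each. Of these, 2 change the scaling of the libraries alone and leave this ratio at 1.01 by construction. Others reuse most of the same UMIs, such as Fcgr3 alone over Fcgr2b and division by transcript length, so the 14 are not independent checks. The count of members at least 1.5-fold apart, 2, was 1 (Fcgr2b) with all filtered cells pooled, 1 (Fcgr2b) with background RNA subtracted and 0 under a 2-fold rule. The median log2 ratio of the members, 0.01, was -0.18 with all filtered cells, -0.22 with background subtracted and -0.067 with no minimum level, which adds Fcgr4. Fcgr1 turned to -0.079 with all filtered cells and -0.11 with background subtracted, and Fcgr3 to -0.11 and -0.17. Pooling all cells adds the endothelial-like class, and the cause was not tested. The log2 ratio of Fcgr2b stayed below 0 in 12 of 12 alternatives, between -1.21 and -0.81. Scaling by the median of ratios over 4884 genes used a size factor of -0.02 on the log2 scale and so raised every ratio by that size. Shares of cells with a UMI move with depth by construction. No paired analysis was possible because each group has 1 library. Depth limits Fcgr4 most, with 11 and 157 UMIs, and no setting supplies the missing spread between animals.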
